A study of Canis lupus familiaris with 13 samples.

Results

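The genes described here encode the proteins of the cytosolic ribosome, measured by RNA sequencing in dog skeletal muscle. A gene was taken when it was protein coding and its symbol was RPL or RPS followed by a number and at most 1 letter (A, L or X), or was RPLP0, RPLP1, RPLP2 or RPSA. Kinases of the RPS6K family were left out. This gave 57 of the 30951 genes in the table, 33 of the large subunit and 24 of the small subunit, and each symbol had 1 gene identifier. Another 19 symbols that fit the same naming pattern in RefSeq, RPLP1, RPLP2 and RPS2 among them, are not analysed here. RPL10L, a close relative of RPL10 known from testis, had 0 to 3 counts per library and 9 in all, and did not pass the filter on low counts. The other 56 genes, 32 of the large and 24 of the small subunit, passed it.

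The muscle was the biceps femoris, a thigh muscle, of 4 wild-type dogs aged 9 to 10 months, and each biopsy gave 1 library. Basal libraries carried sample number 0 and came from dogs 2, 3 and 4. Insulin-stimulated libraries carried sample number 1 (dogs 1 to 4), 2 (dogs 1 to 4) or 3 (dogs 1 and 2). The labels state neither what the sample numbers stand for nor the insulin dose or time, and dog 1 had no basal library. Biopsies of 1 dog repeat that animal, so the tests measure the spread between biopsies within these dogs.

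A ribosome joins a small subunit, which reads the mRNA, to a large subunit, which forms the peptide bond, and each holds 1 copy of nearly every one of its proteins. The mRNAs of these proteins begin with a run of pyrimidine bases, the terminal oligopyrimidine (TOP) motif, and insulin signalling through the kinase complex mTORC1 is known to increase their translation in muscle. That control acts on how mRNAs are used, which a measurement of mRNA levels does not show. Striated muscle also makes RPL3L, a relative of RPL3 that can take its place in the large subunit.

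Libraries held 45200416 to 81948641 counts. Of 14 myofibre markers 13 were found, and they summed to 242484 to 428003 CPM, with ACTA1, the skeletal muscle actin, at 10.4% to 13.7% of counts in 12 of them. Dog 1 sample 2 stood apart at 18.4%, and dog 3 sample 0, a basal library, had the highest summed level of fibroblast and matrix markers (3024 CPM, against 250.1 to 1231 CPM in the others). CPM are counts scaled to the total of each library, multiplied by its TMM factor (trimmed mean of M values). Fold changes of the ribosomal protein genes named for a comparison that move by over 1.5 times, or change sign, without either library are also given without it.

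Cytosolic ribosomal protein genes took 0.644% (dog 1 sample 2) to 1.21% (dog 1 sample 3) of all counts in a library. Their main pattern was a shared shift from library to library, in which 51 to 56 of the 56 genes lay on the same side of their own mean in 9 of 13 libraries. The other 4 were less one-sided, with 46 genes below in dog 1 sample 2, 45 above in dog 3 sample 2, 43 above in dog 1 sample 1 and 30 above in dog 4 sample 0. In dog 2 sample 3 and dog 2 sample 0, 56 of 56 genes were above their mean over the 13 libraries, with a median deviation of 0.46 and 0.30 on the log2 CPM scale. In dog 1 sample 3, 55 of 56 were above (median 0.36). In dog 3 sample 0 only 1 gene, RPL3, was above (median -0.23), and in dog 4 sample 1 only RPL3L and RPL4 were (median -0.35). The library medians of all 14629 genes tested stayed between -0.02 and 0.04, which the scaling brings about, since it centres most genes between libraries. The shifts are thus relative to the bulk of genes. All 13 medians kept their sign with the size factors of the authors in place of the TMM factors, which centre genes in a similar way.

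**Figure D1:**
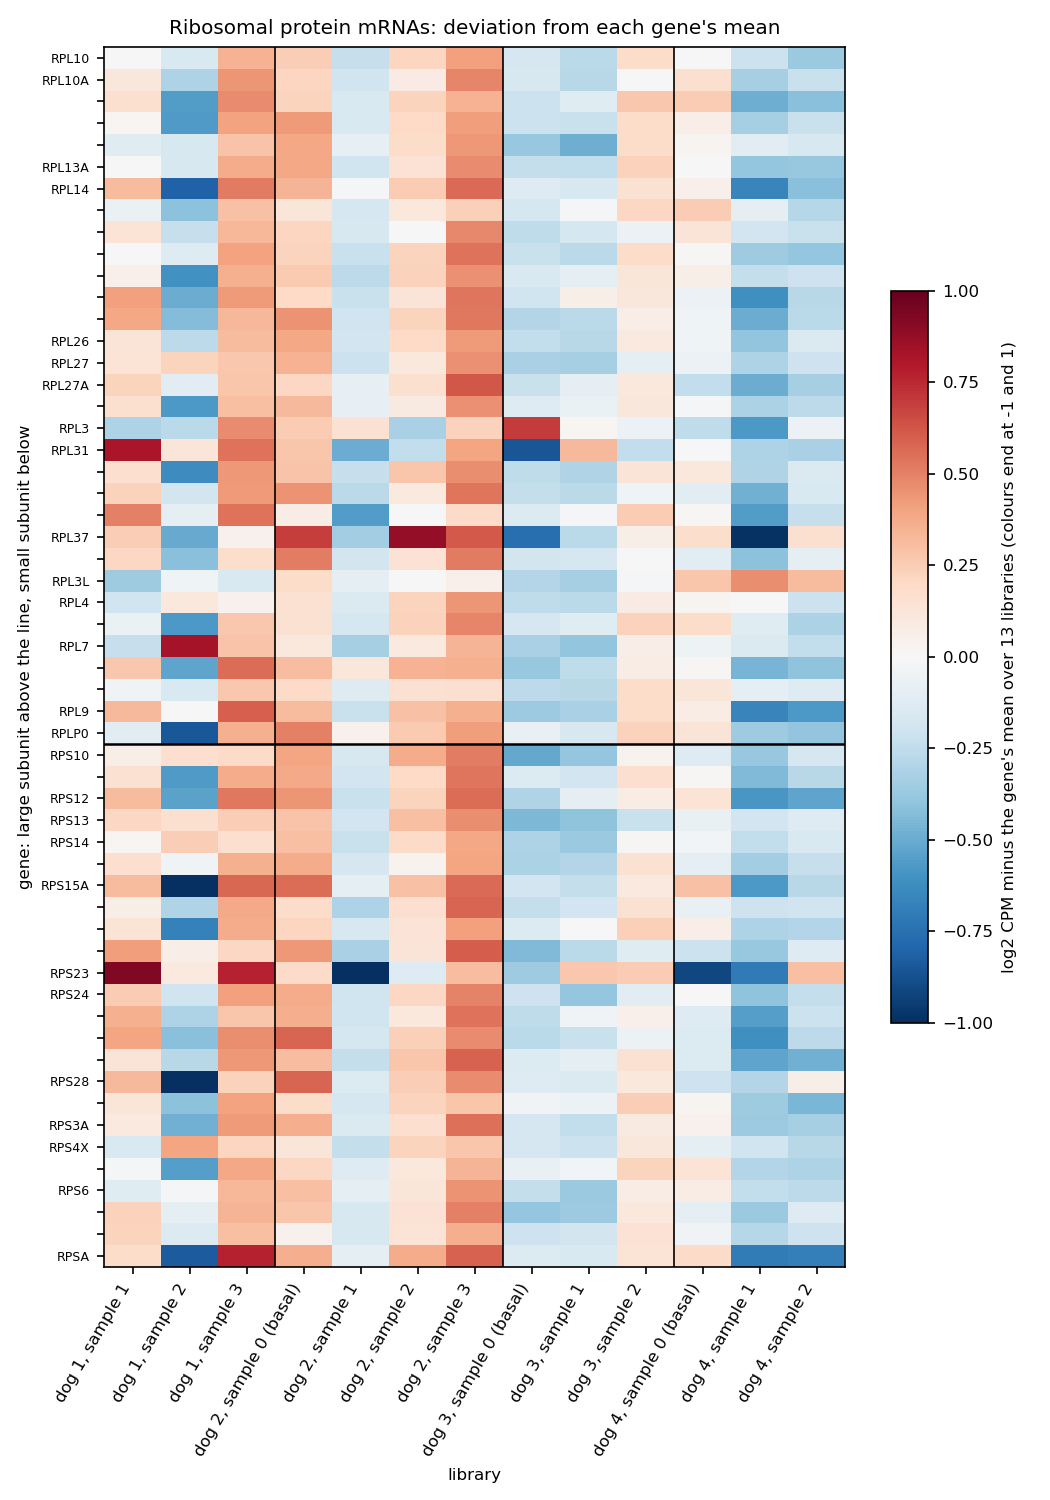
Deviation of each of 56 ribosomal protein mRNAs from its own mean over 13 libraries (log2 CPM, colours ending at -1 and 1), with large subunit genes above the line, small subunit genes below it and dogs separated by vertical lines; genes named in the text are labelled. Columns are mostly of 1 colour; RPL3, RPL3L, RPL7, RPS23 and dog 1 sample 2 break the pattern.

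The shift differed between biopsies of the same dog. In dog 1 the median deviation was 0.15 in sample 1, -0.27 in sample 2 and 0.36 in sample 3. In dog 2 it was 0.30 in the basal library and -0.18, 0.19 and 0.46 in samples 1, 2 and 3. In dog 3 the values were -0.23, -0.22 and 0.11 in samples 0, 1 and 2, and in dog 4 they were 0.01, -0.35 and -0.24. Each dog had libraries on both sides of 0, dog 4 by only 0.01, and the insulin libraries spanned both the lowest and the highest value. In bulk tissue, fewer cells of a type with high levels and less of these mRNAs per cell cannot be told apart.

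RPL26, a large subunit protein near the peptide exit tunnel, showed the shared shift in its purest form. It had 41.2, 31.4 and 46.9 CPM in dog 1 samples 1, 2 and 3, and 49.2, 33.0, 43.2 and 50.7 CPM in dog 2 samples 0, 1, 2 and 3. In dog 3 samples 0, 1 and 2 it had 31.8, 31.1 and 40.3 CPM, and in dog 4 it had 36.7, 28.7 and 34.1 CPM. The libraries where RPL26 was high were those where the whole set was high, dog 2 samples 0 and 3 and dog 1 sample 3. Over the 13 libraries its standard deviation (SD) was 0.28 in log2 CPM, and 0.05 after the median of the set was taken off in each library, the smallest of all 56 genes. RPL26 is named here after its values were seen.

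For the 56 genes the median SD over libraries was 0.31, and 0.15 after the library median was taken off. That median is made of the same genes, so some of the drop is built in. Over all 14629 genes tested the same steps gave 0.47 and 0.54. The SD became smaller for 52 of the 56 genes, and was larger for RPL3, RPL3L, RPL7 and RPS4X. Without dog 1 sample 2 the median SD of the set was 0.30 and then 0.13. RPL10A, RPS3A and RPL13A followed RPL26 with 0.08 each. RPS23 (0.52), RPL31 (0.38) and RPL37 (0.38) were among the 5 least uniform genes, and these 3 had few counts, 10 to 60, 64 to 210 and 12 to 60 per library. How reads matching several gene copies were counted is not given, so few counts need not mean little mRNA.

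The large and the small subunit moved together. In dog 2 sample 3 the median deviation was 0.45 for large and 0.49 for small subunit genes, and in dog 4 sample 1 it was -0.34 and -0.37. The signs of the subunit medians were equal in 12 of 13 libraries, the exception being dog 4 sample 0 (0.02 and -0.05). Reads of large subunit genes were 1.75 times (dog 1 sample 1) to 2.21 times (dog 4 sample 1) those of small subunit genes. In dog 4 the ratio was 2.04, 2.21 and 2.04 in samples 0, 1 and 2, and in the other dogs it was 1.75 to 1.98. Without RPL3L, which alone gave 6.78% to 15.0% of the reads of the set, the ratio was 1.55 to 1.73 over all libraries. These ratios are of reads, so longer genes weigh more, and they do not count ribosomal subunits.

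**Figure D2:**
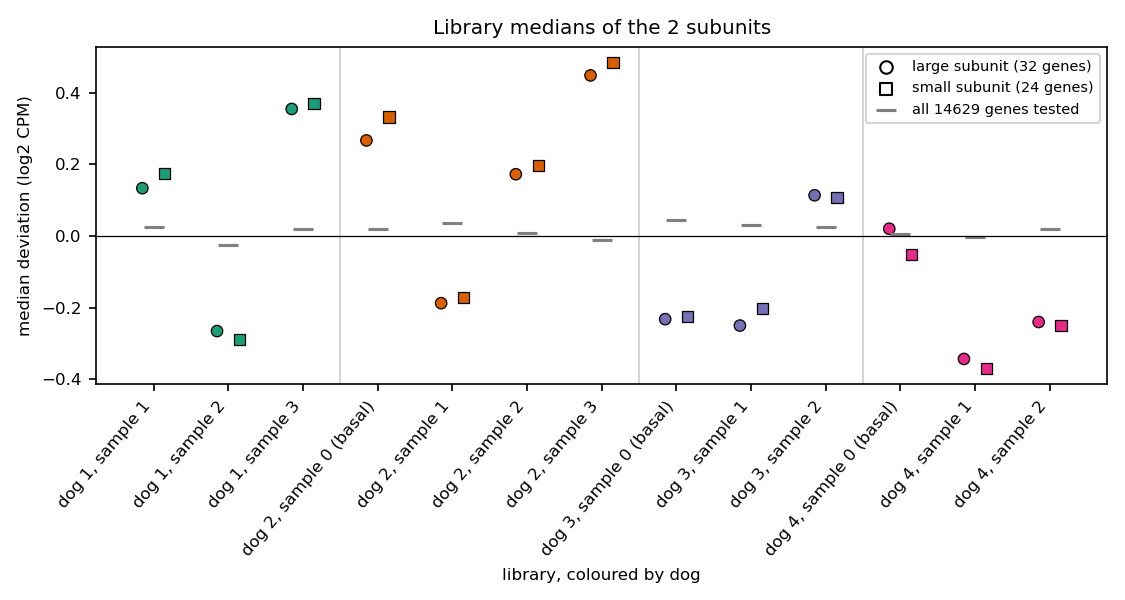
Median deviation from the gene means (log2 CPM) of 32 large subunit genes (circles), 24 small subunit genes (squares) and all genes tested (grey bars) in each library, coloured by dog. Circles and squares lie close together, between -0.37 and 0.49, while the grey bars stay within -0.02 and 0.04.

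RPL3L (ENSCAFG00000047824), the striated muscle form of RPL3, departed from the set mainly in dogs 1 and 4 and in dog 2 sample 3. It had 654, 810 and 752 CPM in dog 1 samples 1, 2 and 3, and 950, 786, 836 and 869 CPM in dog 2 samples 0, 1, 2 and 3. In dog 3 samples 0, 1 and 2 it had 682, 664 and 829 CPM, and in dog 4 it had 1015, 1154 and 1041 CPM. All 3 libraries of dog 4 were above the 10 of the other dogs. Means by dog were 739 ± 79.0 (SD, n = 3), 860 ± 68.7 (n = 4), 725 ± 90.5 (n = 3) and 1070 ± 74.3 CPM (n = 3). In dog 4 sample 1 the deviation of RPL3L was 0.82 above the median of the set in log2 CPM, and that median was at its lowest. Set against the basal library of the same dog, RPL3L had -0.27 in dog 2 sample 1 (set median -0.48), -0.18 in sample 2 (-0.12) and -0.13 in sample 3 (0.12). In dog 3 it had -0.04 in sample 1 (0.02) and 0.28 in sample 2 (0.32), close to the set. In dog 4 it had 0.19 in sample 1 (-0.35) and 0.04 in sample 2 (-0.25). The myofibre markers were also high in dog 4, with sums of 311405, 361708 and 326874 CPM in samples 0, 1 and 2. In the other dogs they summed to 242484 to 304805 CPM, apart from dog 1 sample 2 (428003 CPM). Their part in the RPL3L values was not tested.

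RPL3 (ENSCAFG00000001346), the form used in most tissues, had far fewer reads. It had 16.5, 16.9 and 28.2 CPM in dog 1 samples 1, 2 and 3, and 24.3, 22.7, 16.3 and 23.9 CPM in dog 2 samples 0, 1, 2 and 3. In dog 3 samples 0, 1 and 2 it had 33.0, 20.7 and 19.6 CPM, and in dog 4 it had 17.1, 13.7 and 19.6 CPM. The dogs overlapped, and the highest value belonged to dog 3 sample 0, the library rich in fibroblast markers. There were 20.7 reads of RPL3L for each read of RPL3 in dog 3 sample 0 and 84.5 in dog 4 sample 1. The means by dog were 38.1 ± 10.7 (SD), 40.4 ± 7.54, 31.7 ± 10.8 and 65.7 ± 16.6. How reads that match both genes or their copies were counted is not given in the sources used here, so this ratio is uncertain and compares libraries, not the level of both genes.

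**Figure D3:**
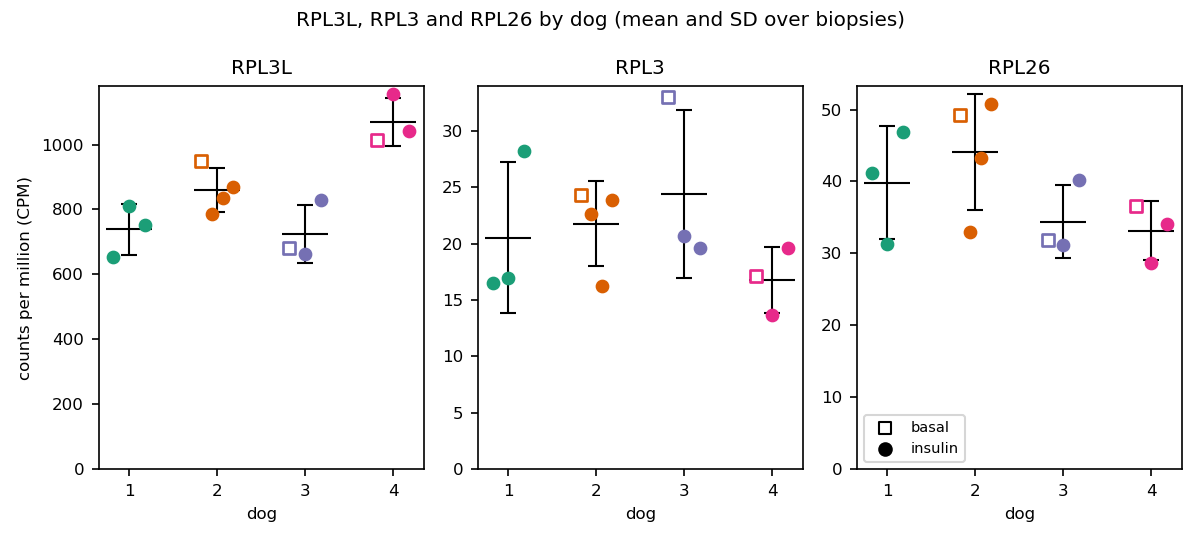
CPM of RPL3L, RPL3 and RPL26 in each library by dog (open squares basal, filled circles insulin, bars mean and SD over 3 or 4 biopsies). The 3 libraries of dog 4 lie at 1015 to 1154 CPM for RPL3L, above all others. For RPL26 they lie at 28.7 to 36.7 CPM, against 31.1 to 50.7 CPM in the other dogs.

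The test between dogs asked which genes differed between these 4 animals beyond the spread between their biopsies. None of the 56 genes passed. The edgeR quasi-likelihood test, adjusted over all genes, called 0 of the 56, where it called 3.13% of all genes tested. DESeq2 called 0 of the 56, where it called 1329 of all 14629. At an unadjusted p under 0.05 there were 3 of the 56, and 2275 of 14629 genes. RPL3L had the lowest p of the set (0.0176), with an edgeR adjusted p of 0.199 and a DESeq2 adjusted p of 0.0651. Over the alternatives its adjusted p ran from 0.0651 to 0.548, the highest without dog 4 sample 1. Of the 13 myofibre markers tested, edgeR called 3 between dogs and DESeq2 called 7.

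RPS13 and RPS10, proteins of the small subunit, came next, with edgeR adjusted p of 0.261 and 0.287. RPS13 had 129 ± 3.82 CPM (SD, n = 3) in dog 1, 132 ± 23.9 (n = 4) in dog 2, 87.5 ± 7.30 (n = 3) in dog 3 and 102 ± 4.29 (n = 3) in dog 4. Dogs 1 and 3 did not overlap for RPS13, while dog 2 spanned 97.9 to 154 CPM. RPS10 had 134 ± 6.76, 150 ± 28.3, 101 ± 20.7 and 104 ± 9.38 CPM in the same order. RPL27 and RPL9 of the large subunit followed with adjusted p of 0.376 and 0.430.

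In insulin against basal libraries, no ribosomal protein gene passed the threshold. The edgeR quasi-likelihood test with the dog as a block called 0 of 56 genes, where it called 20 of all 14629, or 0.137%. At an unadjusted p under 0.05 there were 0 of the 56 and 603 of all genes, and DESeq2 called 0 of the 56 and 104 of all. Log2 fold changes were small, from -0.33 for RPL3 to 0.29 for RPS23, a gene with few counts. Their median standard error (SE) was 0.19. Their median was -0.08, against 0.00 for all genes, with -0.09 for the large and -0.08 for the small subunit. Of the 56 values 47 were negative, 28 of 32 large and 19 of 24 small, compared with 50.2% of all genes. The genes share the library shifts described above, so their signs are not independent of each other.

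This lean depended on single libraries, basal and insulin. Without dog 4 sample 0 only 22 of 56 values were negative (median 0.03), and without dog 3 sample 0 it was 55 (median -0.21). With no replicate block, so that dogs were not paired with themselves, 34 were negative (median -0.04). Leaving out sample 1 of dog 2 gave 39 (median -0.04), sample 3 of dog 2 gave 54 (median -0.14), sample 2 of dog 3 gave 54 (median -0.15) and sample 1 of dog 4 gave 44 (median -0.06). Without dog 1 sample 2 the count was 47, but dog 1 had no basal library. With the dog as a block, libraries of dog 1 entered only the spread of this comparison. The unchanged count therefore does not show how the lean depends on that library.

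The 3 dogs with a basal library did not move alike. In dog 2 all 56 genes were lower in insulin sample 1 than in the basal library (median -0.48 in log2 CPM), 46 were lower in sample 2 (median -0.12) and 48 were higher in sample 3 (median 0.12). In dog 3, 29 were higher and 27 lower in sample 1 (median 0.02), and 55 were higher in sample 2 (median 0.32). In dog 4, 54 were lower in sample 1 (median -0.35) and 50 in sample 2 (median -0.25). Of the 7 insulin libraries set against their own basal library, 4 were lower in most of the genes by a median of over 0.1, 2 were higher by that much and 1 was near 0.

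**Figure D4:**
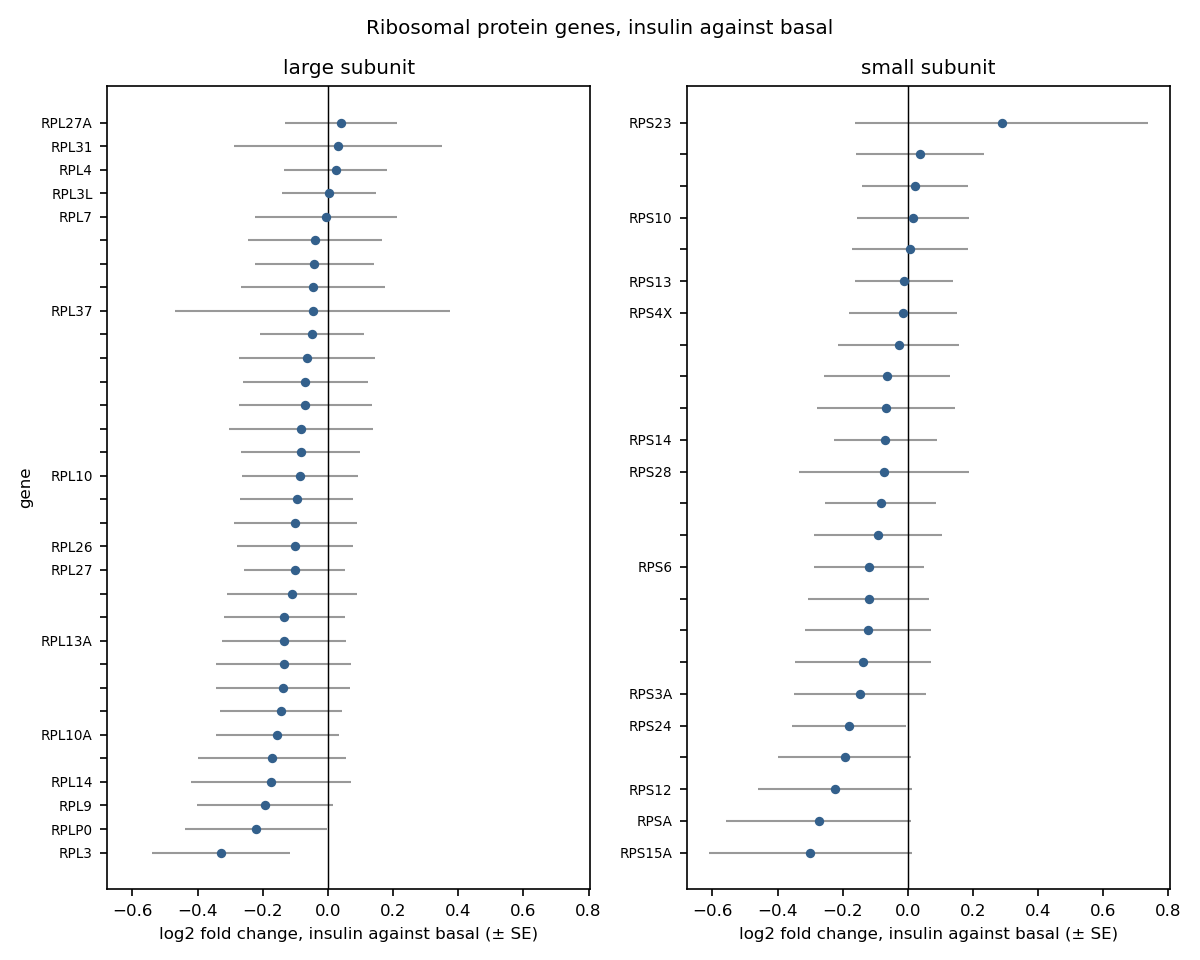
Log2 fold change of each ribosomal protein gene in insulin against basal libraries (points) with its standard error (bars), large subunit on the left and small subunit on the right; genes named in the text are labelled. Values run from -0.33 (RPL3) to 0.29 (RPS23), and 0 of 56 passed the threshold.

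RPL3 had the lowest p of the set (log2 fold change -0.33 ± 0.21 SE, edgeR adjusted p = 1). Basal libraries had 24.3, 33.0 and 17.1 CPM in dogs 2, 3 and 4, and the 10 insulin libraries ran from 13.7 through a median of 19.6 to 28.2 CPM. The groups overlapped when dogs were pooled, and without dog 3 sample 0 the fold change was -0.13. Against the basal library of its own dog, RPL3 had -0.10, -0.58 and -0.02 (log2 CPM) in dog 2 samples 1, 2 and 3. In dog 3 it had -0.67 and -0.75 in samples 1 and 2, and in dog 4 it had -0.32 and 0.19. RPL3L had 950, 682 and 1015 CPM in the same basal libraries and 654 to 1154 CPM, median 820, under insulin (log2 fold change 0.00 ± 0.14).

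The next lowest values, none past the threshold, were those of RPS15A (-0.30 ± 0.31) and RPSA (-0.27 ± 0.28), the latter also known as the laminin receptor. RPS12, a small subunit protein, had -0.22 ± 0.24, and RPLP0, the base of the stalk that recruits elongation factors, had -0.22 ± 0.22. RPS15A had 108, 63.7 and 89.3 CPM in the basal libraries of dogs 2, 3 and 4 and 28.9 to 109 CPM, median 73.1, under insulin. RPLP0 had 355, 239 and 275 CPM in these basal libraries and 140 to 335 CPM, median 246, under insulin. Without dog 3 sample 0 the fold changes were -0.48 for RPS15A, -0.46 for RPSA, -0.45 for RPS12 and -0.37 for RPLP0. In RPS15A and RPLP0 the basal values lay inside or next to the insulin range, and the lowest value was that of dog 1 sample 2, a dog with no basal library.

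RPS6 (ENSCAFG00000001615), the small subunit protein that S6 kinase phosphorylates after insulin, had 302, 207 and 258 CPM in the basal libraries of dogs 2, 3 and 4. Under insulin it ran from 189 through a median of 236 to 334 CPM (log2 fold change -0.12 ± 0.17, adjusted p = 1 by edgeR). The groups overlapped over most of their range, and without dog 3 sample 0 the value was -0.22. Among the highest values of genes with a mean log2 CPM of at least 1 were those of RPL27A (0.04 ± 0.17), RPL4 (0.02 ± 0.16) and RPS10 (0.01 ± 0.17). Without dog 3 sample 0 these were -0.04, -0.04 and -0.13, and RPL3L had -0.05.

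Sample numbers were compared next, and these comparisons share libraries with each other. In insulin sample 1 against basal sample 0, edgeR called 0 of 56 genes and 0% of all genes, with 0 of the 56 and 438 of all at an unadjusted p under 0.05. DESeq2 called 0 of the 56 and 42 of all. The median was -0.21 (large -0.21, small -0.19), and 54 of 56 values were negative, compared with 51.9% of all genes. The genes of lowest p were RPL3 (-0.39 ± 0.21), RPS6 (-0.27 ± 0.15), RPS24 (-0.29 ± 0.18), RPL9 (-0.35 ± 0.22) and RPS14 (-0.24 ± 0.16), with p of 0.0916 to 0.147 and adjusted p of 1. Without dog 3 sample 0 all 56 values were negative (median -0.34), and RPL3 had -0.22 and RPL9 -0.58. Leaving out sample 1 of dog 2 gave 47 negative values, sample 0 of dog 4 gave 48 and sample 0 of dog 2 gave 51, each with a median of -0.12.

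In insulin sample 2 against basal sample 0, edgeR called 0 of 56 genes where it called 0.0479% of all, with 0 of the 56 and 724 of all at an unadjusted p under 0.05, and DESeq2 called 0 and 73. The median was -0.12, and 42 of 56 values were negative (26 of 32 large and 16 of 24 small), compared with 52.1% of all genes. RPL3 (-0.39 ± 0.21), RPSA (-0.37 ± 0.28), RPLP0 (-0.29 ± 0.22), RPS12 (-0.32 ± 0.25) and RPS15A (-0.43 ± 0.33) had the lowest p, each with an edgeR adjusted p of 0.955. Without dog 4 sample 0 there were 32 negative values (median -0.02), without dog 2 sample 0 there were 34 (median -0.02) and without dog 1 sample 2 there were 35 (median -0.03). Leaving out sample 0 of dog 3 gave 51 (median -0.28), sample 2 of that dog gave 49 (median -0.24) and sample 2 of dog 2 gave 44 (median -0.18). With sample 1 of dog 1 left out there were 40 (median -0.07). Without dog 1 sample 2, RPSA had -0.21, RPLP0 -0.16, RPS12 -0.20 and RPS15A -0.20. Without dog 3 sample 0 they had -0.60, -0.48, -0.58 and -0.66, and RPL3 had -0.23.

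In insulin sample 2 against insulin sample 1, 0 of 56 genes and 0% of all genes were called by edgeR, and 0 and 0 by DESeq2. At an unadjusted p under 0.05 there were 2 of the 56 and 495 of all genes. The median was 0.09, and 13 of 56 values were negative, compared with 52.4% of all genes. This count was 1 when sample 2 of dog 1 was left out and 2 when its sample 1 was. Leaving out sample 2 of dog 3 gave 30, sample 1 of dog 2 gave 29, sample 2 of that dog gave 23 and sample 1 of dog 4 gave 21.

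RPL7, a large subunit protein, had the lowest p there (0.47 ± 0.19, edgeR adjusted p = 0.902). From sample 1 to sample 2 it had 345 and 722 CPM in dog 1, 322 and 433 in dog 2, 309 and 424 in dog 3, and 367 and 341 in dog 4. It was higher in sample 2 in 3 of 4 dogs, with the largest gap in dog 1. Without dog 1 sample 2 the value was 0.25 ± 0.15 (edgeR adjusted p = 1). RPS4X, the X-linked form of RPS4, had 0.32 ± 0.14 (edgeR adjusted p = 0.902) and 0.23 without that library, and RPS10, RPS14 and RPL4 had 0.31, 0.28 and 0.20 (RPL4 0.14 without that library).

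Dog 1 sample 2 was the library where the set held together least. The SD between the 56 deviations was 0.37 there and 0.12 to 0.23 in the other 12. RPS15A was at 28.9 CPM (deviation -1.33 in log2 CPM), RPS28 at 7.71 CPM (-1.13), RPLP0 at 140 CPM (-0.85), RPSA at 36.0 CPM (-0.83) and RPL14 at 41.1 CPM (-0.81). These were the lowest value of each gene in any library. RPL7 at 722 CPM (0.83) and RPS4X at 200.4 CPM (0.39) were at their highest in the same library, and RPS14 was at 282 CPM (0.25). In this library the myofibre markers summed to 428003 CPM, against 242484 to 361708 CPM in the others, mitochondrially encoded genes took 0.155% of counts, against 0.282% to 0.845%, and the depth was the highest. The part of these differences in the result was not tested.

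Other genes of the cytosolic ribosome that the naming rule leaves out were compared with the set. Of 8 listed, 5 were found, and their median had the same sign as that of the 56 genes in 13 of 13 libraries. RACK1, a scaffold on the small subunit, had the same sign in 13 of 13. FAU, a ubiquitin-like fusion with a small subunit protein, had it in 11. RACK1 had 209, 134 and 262 CPM in dog 1 samples 1, 2 and 3 and 235, 195, 249 and 278 CPM in dog 2 samples 0, 1, 2 and 3. RPL36AL, a relative of RPL36A, had it in 10, and was at its highest (141 CPM) in dog 1 sample 2, where the set was low. Its SD over libraries was 0.39, and 0.36 after the library median of the set was taken off. In insulin against basal edgeR and DESeq2 each called 0 of the 5, and 0 had an unadjusted p under 0.05. Their median was -0.06, and FAU had -0.13 ± 0.15, RPL36AL 0.16 ± 0.20 and RPL22L1, a relative of RPL22, -0.13 ± 0.28.

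Other mRNAs listed for a TOP start, mostly of translation factors (22 of 25 found), had a median of the same sign in 12 of 13 libraries, with smaller shifts, from -0.22 to 0.33. In insulin against basal edgeR and DESeq2 each called 0 of 22, with 0 at an unadjusted p under 0.05 (median -0.03, 14 negative). VIM, an intermediate filament of mesenchymal cells, had -0.45 ± 0.37, the elongation factor EEF2 had -0.36 ± 0.32 and PABPC4, a poly(A) binding protein, had 0.17 ± 0.17. TPT1 followed the set in 12 of 13 libraries, EEF2 in 8 and EEF1A1 in 6. EEF1A1, like RPL3, was highest in dog 3 sample 0 (159 CPM, against 48.9 to 129 in the others).

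The 62 mitochondrial ribosomal protein genes, whose products build the separate ribosome inside mitochondria, took a different course in some libraries. Their median had the same sign as that of the cytosolic set in 8 of 13 libraries, and in dog 1 sample 2 it was 0.63 while the cytosolic set was at -0.27. In insulin against basal edgeR and DESeq2 each called 0 of 62, with 0 at an unadjusted p under 0.05 (median 0.11, 3 negative). MRPS6 (0.30 ± 0.18), MRPS18B (0.25 ± 0.19) and MRPS26 (0.26 ± 0.20) had the lowest p. Ribosome biogenesis genes (48 of 52 found) had the same sign as the set in 7 of 13 libraries. With insulin edgeR and DESeq2 each called 0 of 48, and 1 had an unadjusted p under 0.05 (median 0.05, 17 negative). RRS1, a nucleolar assembly factor, had 8.18 ± 1.50 CPM basal (SD, n = 3 dogs) and 12.02 ± 2.04 CPM under insulin (n = 10 biopsies of 4 dogs). Its log2 fold change was 0.56 ± 0.19 (edgeR adjusted p = 0.757). The rRNA methyltransferase NOP2 had 0.28 ± 0.18 and HEATR1 had -0.35 ± 0.25. Between dogs 2 of the 48 were called, the assembly factors RRP12 (edgeR adjusted p = 0.0110) and PNO1 (0.0370), near the 3.13% of all genes called.

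Genes that control the translation of these mRNAs, such as mTORC1 members, 4E-BPs and LARP1 (23 of 23 found), had 0 called by edgeR and 0 by DESeq2 in insulin against basal, with 1 at an unadjusted p under 0.05 (median -0.15, 17 negative). MYC, a regulator of ribosome production, had 18.3 ± 18.8 CPM basal (SD, n = 3 dogs) and 7.91 ± 1.49 CPM under insulin (n = 10 biopsies of 4 dogs). The basal spread of MYC was thus as large as its mean (log2 fold change -0.98 ± 0.42, edgeR adjusted p = 1). EIF4EBP2, a repressor of cap-dependent translation, had -0.57 ± 0.33, and MAX, the partner of MYC, had -0.30 ± 0.20.

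Markers of other cell types were compared with the set in the same libraries. The median of the endothelial markers (8 of 8 found) had the same sign as the set in 3 of 13 libraries, and that of smooth muscle and pericytes (7 of 7) in 2 of 13. Endothelial markers summed to 116 to 410.2 CPM in basal and 91.2 to 355 CPM in insulin libraries, and smooth muscle markers to 102 to 229 and 89.4 to 256 CPM. Fibroblast markers (8 of 8) summed to 250.1 to 3024 and 351 to 1231 CPM, with the same sign as the set in 4 libraries. The other marker lists shared the sign of the set in 3 (adipocytes) to 9 (keratinocytes) of 13 libraries. Myofibre markers shared it in 6, neutrophil markers in 7 and red blood cell markers in 8. Neutrophil markers (5 of 6 found) summed to 29.9 to 72.8 CPM basal and 22.5 to 63.8 CPM under insulin, with a median log2 fold change of -1.26 over 4 tested genes, and red blood cell markers (4 of 7) to 23.0 to 35.3 and 24.2 to 39.2 CPM (median -1.89 over 3). None of the found markers of any list was at 0 in all libraries. In each of the 12 marker lists edgeR called 0 genes in insulin against basal. At an unadjusted p under 0.05 there were 3 neutrophil, 3 satellite cell, 1 red blood cell and 1 keratinocyte markers, and DESeq2 called 1 red blood cell marker and 0 in the other lists. The levels of these markers differed between the libraries compared, and their part in the ribosomal protein values was not tested.

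The remaining marker lists were summed in the same way. Macrophage markers (5 of 7 found) summed to 11.2 to 47.8 CPM basal and 7.31 to 32.1 CPM under insulin, lymphocyte markers (8 of 8) to 89.8 to 114 and 61.6 to 135 CPM, and satellite cell markers (5 of 5) to 6.31 to 13.3 and 6.52 to 11.2 CPM. Adipocyte markers (4 of 5) summed to 10.8 to 78.3 and 15.0 to 42.9 CPM, nerve and Schwann cell markers (6 of 6) to 1.43 to 12.5 and 0.762 to 7.28 CPM, and keratinocyte markers (4 of 5) to 53.0 to 80.0 and 49.4 to 92.0 CPM. Dog 3 sample 0 had the highest sum for macrophages, neutrophils, satellite cells, adipocytes, nerve and endothelium as well as fibroblasts.

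**Figure D5:**
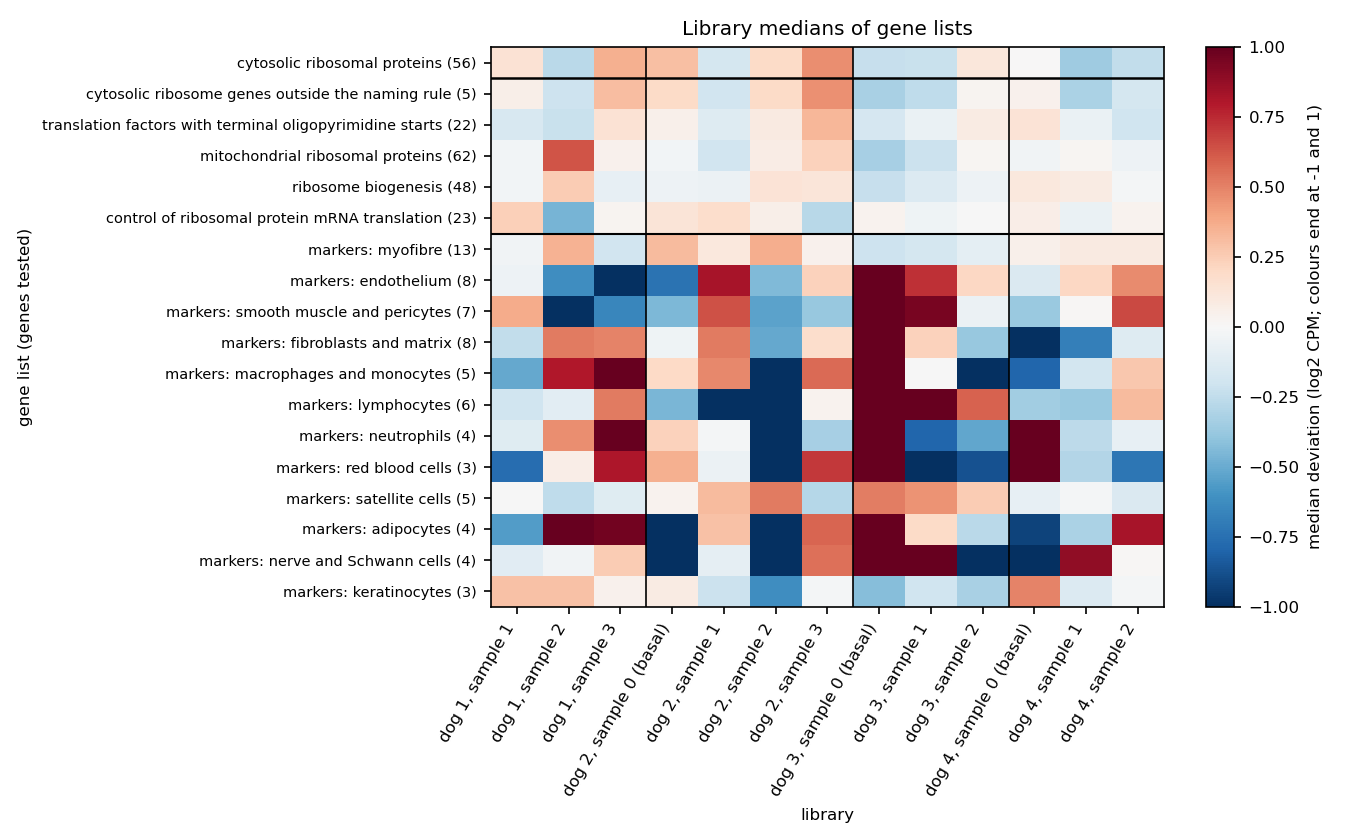
Median deviation from the gene means (log2 CPM, colours ending at -1 and 1) of the ribosomal protein genes, 5 related gene lists and 12 marker lists in 13 libraries, with the number of genes tested in parentheses. The first row and the row below it have the same sign in 13 of 13 libraries. Marker rows share the sign of the first row in 2 (smooth muscle and pericytes) to 9 (keratinocytes) of 13, the endothelial row in 3.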

How the data were processed

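Total RNA of flash-frozen biopsies was made into cDNA libraries with kits that do not mark strand, per the labels' protocols. The submitters' processing notes name Bowtie 0.12.2 and CanFam3.1. How reads matching several gene copies were treated is not given in the sources used here. Each library has raw counts per gene deposited by the authors and a normalized signal, which equals the deposited count divided by 1 factor per library. Symbols were checked against RefSeq.

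The counts were tested with edgeR 4.0.16 in R 4.3.3 (robust quasi-likelihood test, filterByExpr, TMM), leaving 14629 genes, with Benjamini-Hochberg adjustment over all of them and a threshold of 0.05. The dog was a block, since biopsies of 1 dog share the animal. Among pairs of libraries with different sample numbers, deviations from the group means had a median correlation of 0.17 within dogs (15 pairs), against -0.07 between dogs (47 pairs). Taking off the group means ties the between-dog value to the within-dog value, so part of this gap is built in. Log2 CPM used a prior count of 2. DESeq2 1.42.0, other scalings, no filter, no dog term and leaving out libraries were alternatives, and the test was checked on simulated data. Those data had no shift shared between genes, and their planted changes were larger than any fold change of the 56 genes. The check therefore does not show how the test treats small shared shifts.

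Named genes were RPL3, RPL3L, RPS6, RPLP0, RPSA, the 5 highest and 5 lowest fold changes with insulin among genes with a mean log2 CPM of at least 1, the 5 of lowest p elsewhere and up to 3 per list. Others were named after their values were seen, among them RPL26 and the genes at the extremes of dog 1 sample 2. Some genes this rule names are not reported here. The genes and lists were chosen with earlier results of these data known. Levels per coding length, promoters and proteins were not analysed here, so genes were not ranked by level.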

Additional observations from a re-analysis of the deposited data

Results flagged for a closer look

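In groups of 4 libraries, 7 of 120 sets of values held 1 library set far apart from the other 3 by Dixon's criterion (5.8%, where chance gives about 1 in 20). In insulin sample 1, dog 1 was high for RPL18 (221 CPM, others 175 to 179), RPL32 (215 CPM, others 156 to 164) and RPS21 (67.6 CPM, others 38.8 to 41.9). Dog 3 was low there for RPL13 (89.5 CPM, others 116 to 119). In insulin sample 2, RPS28 was low in dog 1 (7.71 CPM, others 17.6 to 20.1) and RPL3L was high in dog 4 (1041 CPM, others 810 to 836). Dog 4 also had the high RPL3L to RPL3 read ratio in insulin sample 1 (84.5, others 32.1 to 39.7).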

How the results depend on the processing

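No ribosomal protein gene was called in any of 91 fits of the 5 comparisons under 20 settings. With no replicate block (dogs not paired) the calls stayed at 0, and negative values in insulin against basal numbered 34 in place of 47. Leaving out 1 library at a time gave 22 to 55 negative values in insulin against basal and 1 to 30 in sample 2 against sample 1. Subunit medians in insulin against basal then ran from -0.21 to 0.03. The mean large to small subunit read ratio was 1.91, and 1.64 without RPL3L. Over all genes, insulin against basal gave 20 calls, 6 with no replicate block, 104 by DESeq2, 140 with no filter and 3 with libraries summed per dog. Sample 1 against sample 0 gave 0 calls, 4 with DESeq2 size factors, 42 by DESeq2 and 16 with no filter. Sample 2 against sample 0 gave 7 calls, 0 with no replicate block, 73 by DESeq2 and 28 with no filter. Dogs gave 458 calls, 1329 by DESeq2 and 793 with no filter. The causes were not tested. No symbol had a second identifier to sum, and scaling per coding length was not run.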
